A study of Mus musculus with 8 samples.

Results

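The interferon response and MHC class I genes described here are 34 named genes, taken by symbol from a list of nucleic acid sensors, interferon regulatory factors and STAT proteins, interferon-stimulated effectors, interferon-inducible GTPases and class I antigen presentation genes. They are 34 of the 36047 genes with transcripts in the files, and all 34 were among the 17997 genes that passed the filter on low counts and were tested. RNA-Seq was performed on muscle stem cells (MuSCs), the Pax7-expressing progenitors that rebuild muscle fibers, from 5- to 6-month-old male Pax7-nTnG mice fed either a Vitamin A-free (VA-free) diet for 8 weeks (3 mice, 4 libraries) or control chow (2 mice, 4 libraries). All mice carried the Pax7CreERT2 and Rosa26nTnG alleles and received tamoxifen at the end of the feeding period, so that nuclear GFP marked cells that expressed the Pax7-driven Cre, and nGFP+ cells of the gastrocnemius and quadriceps were sorted straight into Trizol. Libraries A and B of a mouse are technical replicates that were split at the RNA purification column, and the counts of both were added so that the mouse was the unit of every test. In bulk RNA of this kind, fewer cells of a type and less RNA per cell cannot be told apart.

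Interferons are secreted cytokines that cells release when sensors such as RIG-I (Ddx58) and MDA5 (Ifih1) bind foreign or misplaced RNA. Type I interferons act through a receptor that activates a complex holding STAT2 and IRF9, which binds the interferon-stimulated response element (ISRE) in promoters, while interferon-gamma acts through the gamma-activated site (GAS) and induces GTPases and the MHC class I pathway. MHC class I molecules, made of a heavy chain (H2-K1, H2-D1) and beta-2-microglobulin (B2m), show peptides to CD8+ T cells on nearly all nucleated cells, and the pathway is also known for a low tonic activity without infection, prominent in endothelial and myeloid cells.

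Promoter sequences are shown first, since the ISRE is the element through which type I interferon acts on many of these genes. Of the 34 members, 28 had a promoter in the RefSeq table (build GRCm38.p6), which gives 250 bases before and 50 after each transcription start; Usp18, Tap2, Nlrc5, Oas2, Mx2 and Mx1 were not matched. The ISRE core was searched as GAAANNGAA on both strands (TTCNNTTTC on the other). The following stretches upstream of the start are shown for 6 members that fell on the VA-free diet, for Irgm1, which was not called, and for Stat2, which rose, with the matches in capitals and each sequence 5′ to 3′ on the strand of its gene.
Isg15, chr4:156200831-156200941, minus strand: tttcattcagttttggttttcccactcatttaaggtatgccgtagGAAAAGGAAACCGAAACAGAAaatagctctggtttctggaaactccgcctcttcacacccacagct
Ifit1, chr19:34640735-34640858, plus strand: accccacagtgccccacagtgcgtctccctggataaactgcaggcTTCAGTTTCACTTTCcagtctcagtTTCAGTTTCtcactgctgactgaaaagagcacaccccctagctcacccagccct
Ifit3, chr19:34583329-34583480, plus strand: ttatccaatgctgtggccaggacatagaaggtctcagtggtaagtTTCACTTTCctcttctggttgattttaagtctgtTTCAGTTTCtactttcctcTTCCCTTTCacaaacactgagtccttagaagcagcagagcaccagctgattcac
Oas1a, chr5:120907526-120907590, minus strand: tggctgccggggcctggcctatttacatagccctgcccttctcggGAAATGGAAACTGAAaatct
Bst2, chr8:71537543-71537647, minus strand: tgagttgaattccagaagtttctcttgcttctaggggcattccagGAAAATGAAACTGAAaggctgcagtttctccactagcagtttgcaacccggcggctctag
B2m, chr2:122147503-122147601, plus strand: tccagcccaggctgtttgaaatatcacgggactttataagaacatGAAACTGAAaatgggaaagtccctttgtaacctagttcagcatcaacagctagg
Irgm1, chr11:48871421-48871495, minus strand: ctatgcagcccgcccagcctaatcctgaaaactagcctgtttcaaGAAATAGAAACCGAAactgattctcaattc
Stat2, chr10:128270248-128270330, plus strand: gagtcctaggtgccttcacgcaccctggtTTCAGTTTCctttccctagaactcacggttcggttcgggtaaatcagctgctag

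In Isg15, Oas1a, Bst2, Ifit1 and Irgm1, neighbouring matches overlapped and ran into 1 longer stretch of capitals. The core letters were present in the promoters of 17 of the 28 members, against 9.76% of the 27025 gene symbols in the table. Of these 17 members, 13 fell on the VA-free diet, 1 rose (Stat2) and 3 were not called (Ddx58, Ifih1, Irgm1), and of the 11 members without the letters in this window 7 fell and 4 were not called. The GAS core, searched as TTCNNNGAA (the same letters on both strands), was present in 8 of the 28 promoters, against 9.55% of all symbols. The members were listed for their known part in the interferon response, so higher shares than among all symbols follow in part from that choice. These matches describe the letters of this window and are not measured binding sites. For Bst2 and Stat2, the bases after the RefSeq start were not found near the beginning of an annotated transcript. Positions from the start are less certain for both.

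**Figure D1:**
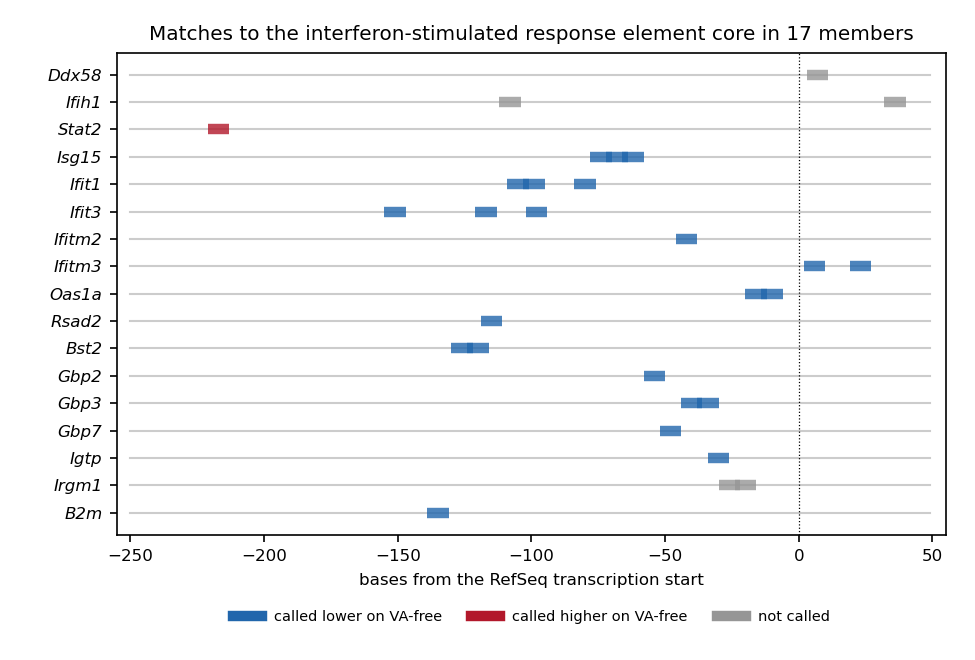
Position of each match to the ISRE core (bars) in the 17 member promoters that hold it, in bases from the RefSeq transcription start (dotted line); grey lines span the searched window and colors give the call between the diets. The matches lay between 221 bases before the start (Stat2) and 32 bases after it (Ifih1), and members that fell and members that did not both carried them.

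Many members lie next to their relatives in the genome (GRCm38). Ifit2, Ifit3 and Ifit1 share a cluster at chr19:34550694-34650009, the Ifitm genes at chr7:140954837-141010770, and Gbp7, Gbp3 and Gbp2 at chr3:142530342-142638008. Oas2 and Oas1a lie at chr5:120730333-120907521, Mx1 and Mx2 at chr16:97447035-97560900, and H2-K1, Tap1, Tap2 and H2-D1 within the MHC at chr17:33996017-35267499. Neighbours did not always change alike: Ifit2 had a log2 fold change of -0.52 beside -3.01 for Ifit3, and Tap1 one of 0.20 beside -0.80 for H2-K1.

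Before the members, some properties of the libraries bear on every value. Levels are in CPM (counts per 1000000 gene counts, scaled by TMM). The libraries held 44831232 to 88650428 estimated counts. Where a gene is given in every library, the values are listed as VA-free 1B, 2A, 3A, 3B, then control 1A, 1B, 2A, 2B. The RNA of control mouse 2 gave unlike libraries: 15 of the 34 members differed by more than 1.5-fold between its libraries A and B, against 2 in control mouse 1 and 1 in VA-free mouse 3, and over all genes tested these shares were 47.6%, 21.4% and 5.88%. Markers of several other cell types moved with the diet. All 13 endothelial markers, Pecam1 among them, were lower on the VA-free diet, and their summed level was 259 to 354 CPM in the VA-free libraries and 1355 to 3402 CPM in the control libraries. The summed level of 14 macrophage and monocyte markers was 25.8 to 168 CPM in the VA-free and 200 to 972 CPM in the control libraries, highest in control 2A, with 5 of 14 called lower (3 without VA-free mouse 1 or control mouse 2). Of 10 fibro-adipogenic progenitor markers 8 were lower and Col3a1 was higher, and their sum was higher on the VA-free diet, at 10982 to 12360 CPM against 4316 to 8780 CPM. Of 9 pericyte and smooth muscle markers 4 were lower and Notch3 was higher, and 4 of 6 tenocyte, 5 of 6 Schwann cell and 4 of 5 tested erythroid markers were lower. The 10 dendritic cell markers summed to 15.3 to 178 CPM and to 169 to 1814 CPM, highest in control 2A, and the diets overlapped. Of 9 tested dendritic cell markers, 2 were called lower and 7 were not called. The 12 lymphocyte and NK cell markers summed to at most 6.45 CPM in any library, and of 6 tested 2 were called lower and 4 were not called. MuSC markers moved the other way: 11 of 12, among them Pax7, Myf5 and Cdh15, were higher on the VA-free diet, with sums of 7206 to 8195 CPM against 3099 to 4823 CPM. Without control 2B 7 of them were called higher. The part of these cell types in the values below was not tested.

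**Figure D2:**
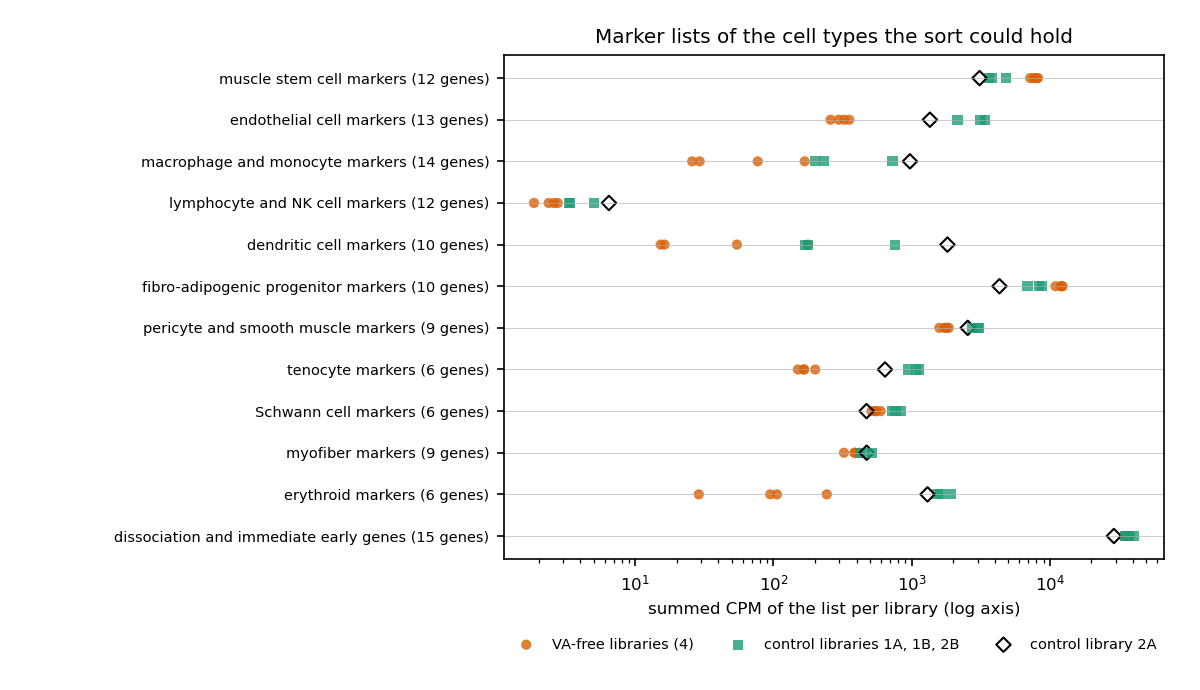
Summed CPM of each marker list in the 8 libraries, on a log axis; circles are VA-free libraries, squares control libraries and the open diamond control 2A. Endothelial sums reached at most 354 CPM in the VA-free libraries and at least 1355 CPM in the control libraries, while MuSC marker sums were higher in all 4 VA-free libraries.

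Most of the members were lower in the RNA of the nGFP+ cells sorted from mice on the VA-free diet. Of the 34 members, 22 fell and 3 rose (Stat2, Mx1 and Nlrc5), and 9 were not called. Among all genes tested, 41.4% were called, 22.5% as lower and 18.9% as higher. The share of members called lower, 64.7%, was above the background and the share called higher was below it. The members were chosen with earlier results of these data known, so these shares describe the list and are not independent support. The call is an adjusted p under 0.05 in the quasi-likelihood F test of edgeR, adjusted by Benjamini-Hochberg over all 17997 genes, and every adjusted p below is from that fit. The median log2 fold change of the members was -0.77, beside 0.003 for all genes tested. In 21 members every VA-free library lay below every control library, which held for 21.4% of all genes tested. A called drop beyond -2 on the log2 scale was found for 10 members, beside 7.52% of all genes. Without control 2A, 22 members were called lower and 2 higher, and without control 2B 17 were lower and 2 higher. On the TPM scale with limma, 14 were called lower and 5 higher with a pseudocount of 1, and 14 and 6 with 0.1.

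**Figure D3:**
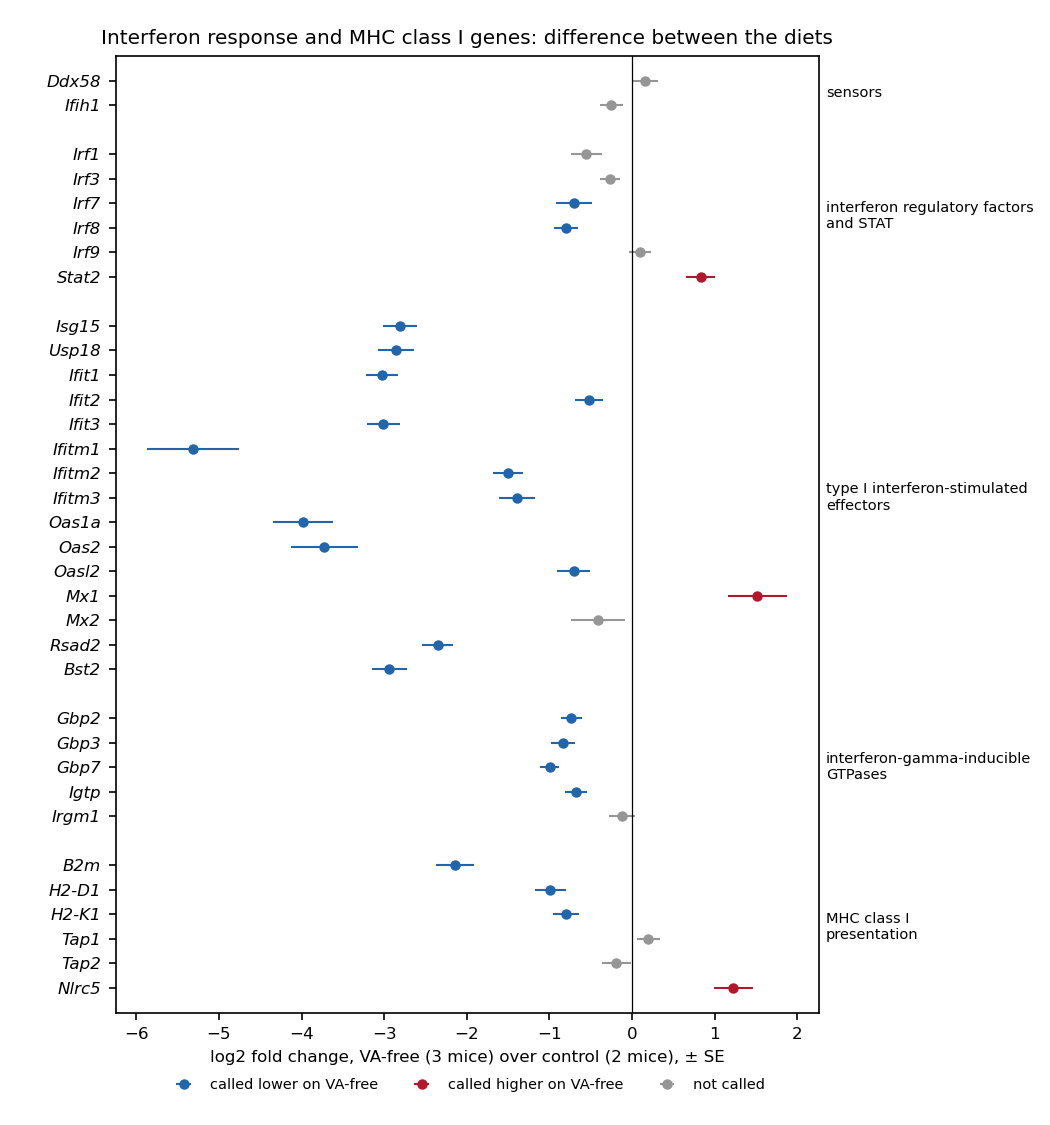
Log2 fold change of each of the 34 members between the diets, with its standard error (SE), grouped by role; blue points were called lower on the VA-free diet, red points higher and grey points were not called. The interferon-stimulated effectors reach -5.31 (Ifitm1), the GTPases stay between -0.99 and -0.13, and Stat2, Mx1 and Nlrc5 lie to the right of the line.

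The sensors did not differ detectably between the diets. Ddx58, which encodes RIG-I, an RNA helicase that binds short double-stranded RNA, was measured at 32.7, 30.3, 30.9 and 39.6 CPM in the VA-free libraries and at 37.5, 25.2, 21.5 and 32.8 CPM in the control libraries. The diets overlapped. Its log2 fold change was 0.16 ± 0.15 (SE, adjusted p = 0.438, edgeR). Ifih1, which encodes the long-RNA sensor MDA5, ranged from 24.3 to 29.7 CPM in the VA-free and from 25.6 to 41.1 CPM in the control libraries, with a log2 fold change of -0.25 ± 0.14 (adjusted p = 0.189).

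The transcription factors split in direction: Irf7 and Irf8 fell, Stat2 rose, and Irf1, Irf3 and Irf9 were not called. Irf8, a factor of myeloid development that also acts in interferon responses, was measured at 55.8, 61.2, 73.8 and 68.6 CPM in the VA-free libraries and at 119, 114, 122 and 87.6 CPM in the control libraries. All control libraries were above all VA-free libraries, with a log2 fold change of -0.80 ± 0.14 (SE, adjusted p = 0.00474, edgeR). Its coding transcripts went in different directions on the scale of TPM (transcripts per 1000000, scaled by length). The one of 2847 bases had a mean of 25.1 TPM on the VA-free and 14.3 TPM on the control diet, the one of 1284 bases 21.65 and 42.6 TPM, and the one of 2270 bases 0.23 and 12.6 TPM. Irf8 overlaps Gm20388. Irf7, the factor that amplifies type I interferon production, was measured at 15.6, 25.8, 22.7 and 26.3 CPM in the VA-free libraries and at 37.6, 35.5, 27.7 and 42.9 CPM in the control libraries. Control 2A was close to the highest VA-free library, and the log2 fold change was -0.70 ± 0.22 (adjusted p = 0.0396). Irf7 overlaps Phrf1 on the opposite strand, and reads of overlapping genes can be confused without strand information. Stat2, the partner of IRF9 in the ISRE-binding complex, went the other way, with 59.3, 80.7, 74.3 and 75.7 CPM on the VA-free diet and 43.9, 45.4, 27.0 and 45.3 CPM on the control diet. No library overlapped between the diets, and the log2 fold change was 0.83 ± 0.18 (adjusted p = 0.00975). Its most abundant coding transcript, of 4394 bases, held 36.7% to 41.3% of its TPM on the VA-free and 23.9% to 38.2% on the control diet, and most of the rest fell to retained-intron transcripts.

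Irf1, an early factor of the interferon-gamma response and the most abundant gene of this group, was just outside the threshold. It was measured at 779, 727, 722 and 746 CPM in the VA-free libraries and at 1331, 1265, 524 and 1243 CPM in the control libraries. Control 2A was the only control library below the VA-free libraries. The log2 fold change was -0.55 ± 0.19 (SE, adjusted p = 0.0527, edgeR), and without control 2A it was -0.78 with an adjusted p of 0.00187. Irf3, the factor that RIG-I and MDA5 signalling activates, ranged from 25.4 to 28.3 CPM and from 27.9 to 37.9 CPM (log2 fold change -0.26, adjusted p = 0.133). Irf9, the DNA-binding subunit of the STAT complex, ranged from 106 to 133 CPM and from 102 to 127 CPM (log2 fold change 0.10, adjusted p = 0.584). It overlaps Rnf31. The call of Irf7 was lost without control 1A (adjusted p = 0.0610), without control 2B (0.189), without VA-free 3A (0.0533) and when any of 4 mice was left out (VA-free 1 and 3, control 1 and 2; 0.0564 to 0.120). Its log2 fold change was -0.033 on the TPM scale with a pseudocount of 1 (adjusted p = 0.903, limma), -0.45 with an offset for average transcript length (0.142), -0.30 with the trend with gene length removed (0.347) and -0.59 with 1 library per mouse (0.165). Irf9 was called higher on the TPM scale (log2 fold change 0.47, adjusted p = 0.0103), and the call of Stat2 was lost without control 2B (0.0588).

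The interferon-stimulated effectors showed the largest drops. Of 15 genes, 13 fell, Mx1 rose and Mx2 was not called, with a median log2 fold change of -2.81. Ifit1, an RNA-binding protein that blocks translation of viral RNA, was measured at 14.4, 18.3, 20.7 and 18.8 CPM in the VA-free libraries and at 122, 109, 236 and 119 CPM in the control libraries. Control 2A held the highest level, and all VA-free libraries were below all control libraries. The means were 17.7 ± 2.65 CPM (SD, n = 3 mice) and 144 ± 34.2 CPM (n = 2), the level was 8.15-fold lower, and the log2 fold change was -3.03 ± 0.19 (SE, adjusted p = 0.000226, edgeR). Ifit3, its relative, was measured at 6.53, 9.67, 8.30 and 10.7 CPM on the VA-free diet and at 58.0, 68.9, 93.4 and 62.2 CPM on the control diet. The level was 8.05-fold lower, with a log2 fold change of -3.01 ± 0.20 (adjusted p = 0.000226).

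Isg15, a ubiquitin-like protein that is attached to newly made proteins, followed the same pattern. Its levels were 6.83, 9.90, 10.2 and 9.10 CPM in the VA-free libraries and 72.5, 63.4, 74.6 and 38.6 CPM in the control libraries. It was 7-fold lower, with a log2 fold change of -2.81 ± 0.21 (SE, adjusted p = 0.000263, edgeR). Usp18, the protease that removes ISG15 and restrains the type I receptor, ranged from 3.48 to 5.39 CPM and from 21.4 to 51.4 CPM (log2 fold change -2.86, adjusted p = 0.000274). The modifier and its protease both fell on the VA-free diet. Bst2, the surface protein tetherin that holds budding viruses at the membrane, ranged from 7.88 to 10.99 CPM and from 56.2 to 85.8 CPM (log2 fold change -2.94, adjusted p = 0.000263). Rsad2, which encodes viperin, an enzyme that makes a chain-terminating nucleotide, ranged from 4.75 to 7.35 CPM and from 27.8 to 33.5 CPM (log2 fold change -2.35, adjusted p = 0.000341).

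The Ifitm genes, which encode small membrane proteins that block viral fusion, all fell, but by unlike amounts. Ifitm3, the most abundant effector, was measured at 380, 502, 471 and 439 CPM in the VA-free libraries and at 1424, 1379, 971 and 916 CPM in the control libraries. Its means were 450 ± 58.0 CPM (SD, n = 3) and 1181 ± 383 CPM (n = 2), and the log2 fold change was -1.39 ± 0.22 (SE, adjusted p = 0.00257, edgeR). In both control libraries of mouse 1 it was higher than in both of mouse 2. Ifitm2 ranged from 161 to 190 CPM and from 319 to 610 CPM (log2 fold change -1.50, adjusted p = 0.00105). Ifitm1 had the largest drop of all members, from 7.09 to 15.9 CPM in the control libraries to 0.139 to 0.484 CPM in the VA-free libraries, where 9 to 24 estimated counts were left. Its log2 fold change was -5.31 ± 0.55 (adjusted p = 0.00062), and -4.57 without control mouse 1. With the trend with gene length removed, the log2 fold changes were -0.66 for Ifitm3 (adjusted p = 0.0483, edgeR), -0.78 for Ifitm2 and -4.58 for Ifitm1.

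The oligoadenylate synthetases, which make the messenger that activates RNase L, fell as well. Oas1a went from 6.49 to 12.3 CPM in the control libraries to 0.154 to 0.734 CPM in the VA-free libraries (log2 fold change -3.98, adjusted p = 0.000418, edgeR). Oas2 went from 4.41 to 8.50 CPM to 0.267 to 0.591 CPM (log2 fold change -3.72, adjusted p = 0.00073). Oasl2, a relative with ubiquitin-like domains, changed less, from 29.6 to 44.9 CPM to 18.9 to 26.5 CPM (log2 fold change -0.71, adjusted p = 0.0301). Ifit2, the neighbour of Ifit3 on chromosome 19, also changed less than its relatives, with 24.6 to 31.5 CPM on the VA-free and 29.9 to 58.7 CPM on the control diet (log2 fold change -0.52, adjusted p = 0.0443), and the diets overlapped. Its call did not hold without control 2A (log2 fold change -0.32, adjusted p = 0.0909), nor did that of Oasl2 without control mouse 1 (log2 fold change -0.41, adjusted p = 0.140). Ifit2 also lost its call when control 1B (adjusted p = 0.0707), control 2B (0.0942), VA-free 3A (0.0762), control mouse 2 (0.169) or VA-free mouse 1, 2 or 3 (0.124, 0.128 and 0.0679) was left out, and Oasl2 when control 2B (0.0834) or VA-free mouse 1 or 2 (0.0982 and 0.0706) was left out. On the TPM scale with limma neither was called, with log2 fold changes of 0.061 for Ifit2 (adjusted p = 0.816) and -0.33 for Oasl2 (0.155).

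The Mx genes, dynamin-like GTPases that trap viral particles, did not follow the other effectors. Mx1 was measured at 2.91, 2.76, 2.47 and 2.64 CPM in the VA-free libraries and at 1.45, 0.793, 0.728 and 0.835 CPM in the control libraries. It rose by 1.52 ± 0.36 on the log2 scale (SE, adjusted p = 0.0144, edgeR), from 35 to 73 estimated counts in the control libraries, and the call was lost without VA-free mouse 1 (adjusted p = 0.0543). Mx2 ranged from 5.49 to 9.22 CPM and from 2.79 to 13.6 CPM, lowest in control 2A (log2 fold change -0.41, adjusted p = 0.360). The annotation used lists the Mx1 reads of all VA-free libraries under a transcript marked for nonsense-mediated decay, and most Mx2 reads under polymorphic pseudogene transcripts, and both genes are known to be defective in most laboratory strains. Reads of the near-identical pairs Ifit3 and Ifit3b, Ifit1 and Ifit1bl1, Oas1a and Oas1g, and of Ifitm1, Ifitm2 and Ifitm3, may be split by the counting, so the levels of single genes in these families are less certain than their sum.

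**Figure D4:**
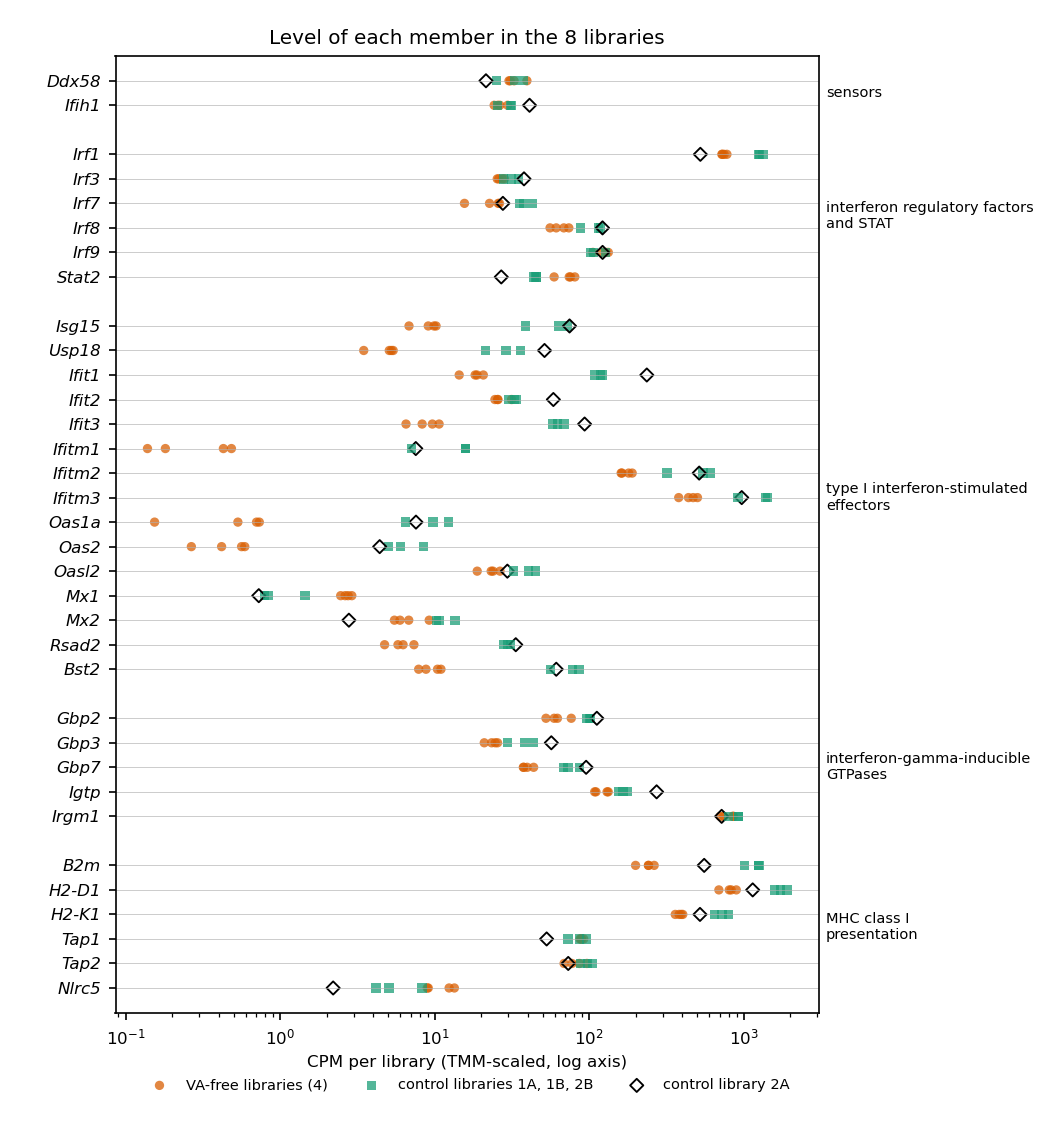
CPM of each member in the 8 libraries, on a log axis, grouped by role; circles are VA-free libraries, squares are control 1A, 1B and 2B and the open diamond is control 2A. Isg15, Usp18, Ifit1, Ifit3, Oas1a, Oas2, Rsad2 and Bst2 leave a wide gap between the diets, while Irf9, Irgm1 and Tap2 overlap, and control 2A is the highest library for Ifit1 and the lowest for Irf1.

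The interferon-gamma-inducible GTPases, which attack membranes around intracellular microbes, were lower for 4 of 5 genes, and Irgm1 was not called; their median log2 fold change was -0.73. Gbp7 was measured at 37.5, 43.7, 39.7 and 37.8 CPM in the VA-free libraries and at 86.2, 73.0, 95.5 and 68.0 CPM in the control libraries. Its log2 fold change was -0.99 ± 0.11 (SE, adjusted p = 0.000847, edgeR). Gbp3 was measured at 23.4, 20.9, 24.7 and 25.5 CPM and at 43.5, 29.5, 56.9 and 38.04 CPM (log2 fold change -0.83, adjusted p = 0.00438). Gbp2 was measured at 52.5, 62.3, 76.6 and 59.3 CPM and at 100.2, 101.6, 112 and 96.7 CPM (log2 fold change -0.73, adjusted p = 0.00447). For all 3 genes no VA-free library reached the lowest control library. Igtp, an immunity-related GTPase, ranged from 109 to 133 CPM and from 154 to 273 CPM (log2 fold change -0.68, adjusted p = 0.00699). It overlaps Irgm2 on the same strand.

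Irgm1, which controls the other immunity-related GTPases and was the most abundant of the group, was measured at 705, 742, 847 and 859 CPM in the VA-free libraries and at 927, 926, 719.6 and 796 CPM in the control libraries. The diets overlapped, with a log2 fold change of -0.13 ± 0.16 (SE, adjusted p = 0.572, edgeR). Its promoter holds the overlapping ISRE letters printed above, as those of Isg15 and Oas1a do. On the per-length TPM scale with limma, the median of all genes lay 0.19 above 0 on the log2 scale, 68.7% of the called genes were higher against 45.6% in the edgeR fit, and Gbp2, Gbp3 and Igtp were not called (adjusted p = 0.0758, 0.0708 and 0.144).

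Of the 6 MHC class I presentation genes, the structural subunits fell, the peptide transporters were not called and the class I transactivator rose. B2m, the light chain, was measured at 199.6, 242, 263 and 242 CPM in the VA-free libraries and at 1247, 1256, 555 and 1008 CPM in the control libraries. Control 2A was the lowest control library, and it was above every VA-free library. The means were 234 ± 26.6 CPM (SD, n = 3) and 1031 ± 372 CPM (n = 2), the level was 4.41-fold lower, and the log2 fold change was -2.14 ± 0.23 (SE, adjusted p = 0.000654, edgeR). H2-D1, a classical heavy chain and the most abundant gene of this group by CPM, was measured at 690.5, 895, 806 and 829.7 CPM on the VA-free diet and at 1906, 1729, 1143 and 1581 CPM on the control diet. The levels did not overlap, and the log2 fold change was -0.99 ± 0.18 (adjusted p = 0.00543). H2-K1, the other classical heavy chain, ranged from 361 to 403 CPM and from 521 to 795 CPM (log2 fold change -0.80, adjusted p = 0.00707).

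B2m had a larger log2 fold change than either heavy chain, and the difference between them was not tested. With the trend with gene length removed, the log2 fold changes were -1.44 for B2m, -0.83 for H2-D1 and -0.31 for H2-K1. H2-K1 was not called there (adjusted p = 0.196, edgeR). The heavy chains lost their calls without control 2B (adjusted p = 0.055 for H2-D1 and 0.0535 for H2-K1), and on the TPM scale their log2 fold changes were -0.32 and -0.25 (adjusted p = 0.17 and 0.192, limma). The heavy chain transcripts went in different directions, given as mean TPM on the VA-free and then the control diet, without a test. Of H2-D1, the coding one of 2102 bases had 652.3 and 1010 TPM, and that of 391 bases 242.7 and 198.6 TPM. Its retained-intron one had 74.86 and 16.36 TPM. Of H2-K1, the coding one of 1619 bases had 152.8 and 311.6 TPM, and that of 1567 bases 12.69 and 8.54 TPM. Its retained-intron one of 1014 bases had 78.64 and 25.02 TPM, and that of 457 bases 83.72 and 84.29 TPM. Reads of H2-D1, H2-K1 and the H2-Q genes are alike and may be split by the counting.

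Tap1 and Tap2, the subunits of the transporter that brings peptides into the endoplasmic reticulum, did not follow B2m. Tap1 ranged from 87.2 to 92.1 CPM in the VA-free and from 53.1 to 96.3 CPM in the control libraries (log2 fold change 0.20, adjusted p = 0.285, edgeR), and Tap2 from 68.8 to 96.6 CPM and from 73.2 to 105 CPM (log2 fold change -0.19, adjusted p = 0.433). Tap1 overlaps Psmb9, and Tap2 was nearly all on a retained-intron transcript. Tap1 was called higher without control mouse 1 (log2 fold change 0.40, adjusted p = 0.0258) and on the TPM scale (log2 fold change 0.61, adjusted p = 0.007, limma). Nlrc5, the transactivator of the class I genes, was measured at 13.4, 12.4, 9.10 and 8.96 CPM in the VA-free libraries and at 5.06, 4.17, 2.20 and 8.29 CPM in the control libraries. It rose by 1.23 ± 0.24 on the log2 scale (SE, adjusted p = 0.00645), although control 2B came close to the VA-free libraries, and without control 2A the log2 fold change was 0.85 (adjusted p = 0.0573). Of several coding Nlrc5 transcripts, the one of 4552 bases held 29.5% to 32.0% of its TPM on the VA-free and 0.293% to 26.0% on the control diet. The summed level of Nlrc5 was higher in the same libraries in which B2m, H2-D1 and H2-K1 were lower. Its noncoding transcript of 557 bases had a mean of 4.37 TPM on the VA-free and 1 TPM on the control diet. The noncoding one of 346 bases had 2.11 and 0.867 TPM. Of the coding ones, that of 4552 bases had 3.095 and 0.475 TPM, and that of 7578 bases 0.447 and 0.433 TPM.

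Levels of different genes can be set side by side only per length, in TPM. Ifitm3 had the highest TPM of the members on both diets, with a mean of 2591 TPM on the control and 1347 TPM on the VA-free diet. B2m ranked 2nd on the control diet at 1748 TPM and 7th on the VA-free diet at 537 TPM, below H2-D1, Irf1, H2-K1, Irgm1 and Ifitm2. Bst2 (131 TPM) and Isg15 (120 TPM) ranked 9th and 10th on the control diet and 18th and 20th on the VA-free diet, at 24.5 and 23.5 TPM. Stat2 moved from 22nd to 12th, from 28.0 to 58.5 TPM. These ranks are descriptions and were not tested.

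The rest of the pathway was described by lists chosen by gene function, with earlier results of these data known. Their counts stand beside 18.9% higher and 22.5% lower among all genes tested. Interferon transcripts were nearly absent: of 12 interferon genes only Ifnz passed the filter (0.374 to 1.13 CPM, adjusted p = 0.937, edgeR), Ifnb1 had 15 estimated counts in VA-free 1B and 0 in the other libraries, and Ifng had 7 in control 2B and 0 in the others. Of 8 tested receptor and kinase genes, 2 rose (Jak2 and Tyk2) and 3 fell, and with 1 mouse or library left out 1 to 3 were higher and 3 lower. Ifnar1 and Ifnar2, the subunits of the type I receptor, were not called (log2 fold change 0.24 and 0.14, adjusted p = 0.149 and 0.656), nor was Jak1, the most abundant gene of this list at a mean of 375 CPM (log2 fold change 0.30, adjusted p = 0.0723). Both subunits of the interferon-gamma receptor fell, Ifngr1 by 0.91 and Ifngr2 by 0.63 on the log2 scale (adjusted p = 0.000829 and 0.011). Il10rb, the chain shared by the interferon-lambda and interleukin-10 receptors, fell by 1.27 (adjusted p = 0.00113).

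Of the 17 negative regulators, 3 rose and 6 fell. With 1 mouse or library left out, 0 (without control 2B) to 4 were higher and 5 to 7 lower. Socs3, an inhibitor of JAK kinases and the most abundant, rose by 1.27 on the log2 scale (adjusted p = 0.00331, edgeR) with only 137 CPM in control 2A beside 596 to 820 CPM in the other control and 1289 to 1625 CPM in the VA-free libraries. Ptpn6, the phosphatase SHP-1 of blood cells, fell by 2.56 (adjusted p = 0.0177), and the phosphatase gene Ptpn1 was not called (log2 fold change 0.13, adjusted p = 0.475). Of the 16 tested adaptors and kinases of nucleic acid sensing, 5 rose and 3 fell. With 1 mouse or library left out, 2 to 5 were higher and 1 to 3 lower, and both counts were lowest without control 2B and without VA-free mouse 1. Traf3, an adaptor between MAVS and the kinases that activate IRF3, rose by 1.86 (adjusted p = 0.000433), and Tmem173, which encodes STING, fell by 1.11 (adjusted p = 0.00574). Myd88 and Unc93b1, the most abundant of this list, were not called (adjusted p = 0.331 and 0.118).

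Interferon-stimulated genes outside the member list were mostly lower. Of 60 tested, 39 fell and 5 rose (Helz2, Parp14, Zc3hav1, Znfx1 and Pml), with a median log2 fold change of -1.52, beside 22.5% lower and 18.9% higher among all genes. Iigp1, an immunity-related GTPase and the most abundant of them, ranged from 99.7 to 117 CPM in the VA-free and from 316 to 946 CPM in the control libraries (log2 fold change -2.31, adjusted p = 0.000223, edgeR). Slfn2, a Schlafen family gene, had the largest drop (log2 fold change -5.22, adjusted p = 0.000451). Tgtp1, a GTPase gene that shares reads with Tgtp2, followed (log2 fold change -4.96, adjusted p = 0.00014). Ifi27 fell by 0.72 (adjusted p = 0.0047). Leaving out 1 mouse or 1 library left between 35 and 40 of these genes lower and 1 (without VA-free mouse 3) to 6 higher, with 2 higher without control 2A, control 2B or VA-free mouse 2.

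Of 26 other tested antigen processing and class I genes, 14 fell and 2 rose (H2-Q10 and Rfx5). Psmb8, a catalytic subunit of the immunoproteasome, ranged from 16.3 to 20.1 CPM in the VA-free and from 78.02 to 148 CPM in the control libraries (log2 fold change -2.69, adjusted p = 0.000226, edgeR). H2-Q6, a nonclassical class I heavy chain, fell by 2.72 on the log2 scale (adjusted p = 0.000236). The chaperones Pdia3 and Calr, the most abundant of this list, which also fold proteins outside the class I pathway, were not called (log2 fold change -0.36 and 0.07, adjusted p = 0.2 and 0.699). With 1 mouse or 1 library left out, 13 to 15 of these genes were lower and 0 to 3 higher, with 0 higher without control 2B or any VA-free mouse.

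**Figure D5:**
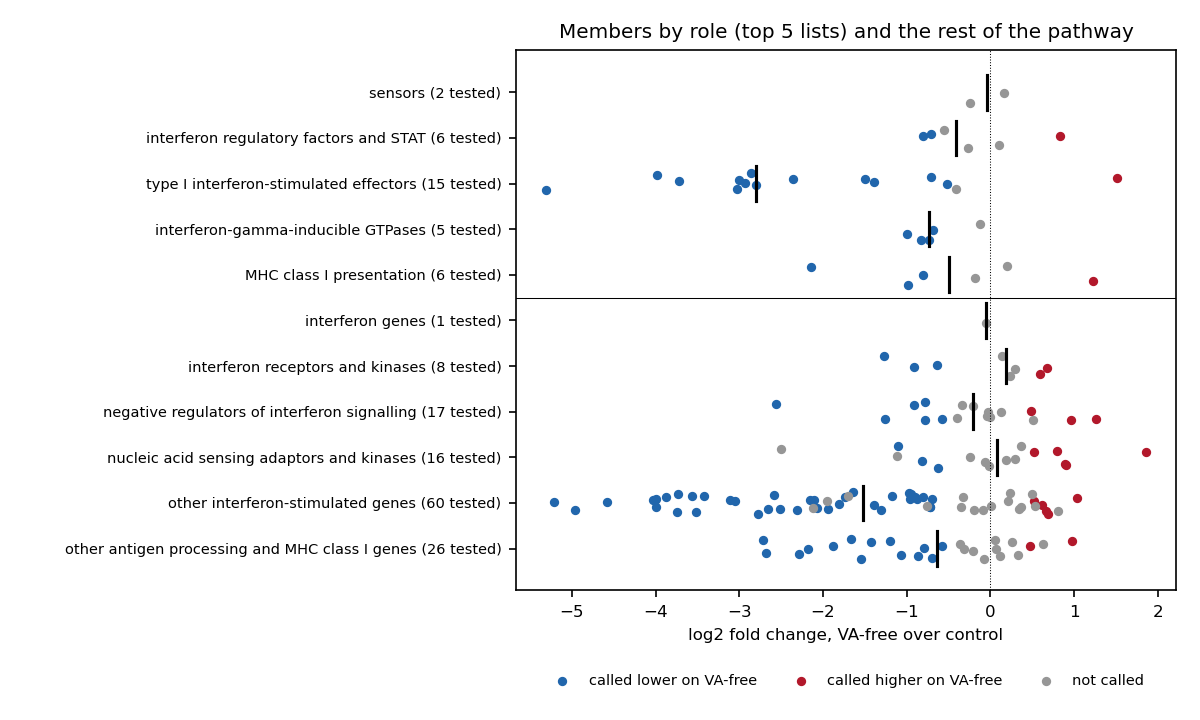
Log2 fold change of every tested gene in the 5 member groups (above the line) and in the 6 other pathway lists (below it); each point is a gene, black bars are list medians and colors give the call. The effectors and the other interferon-stimulated genes lie mostly left of 0, with medians of -2.81 and -1.52, while receptors and sensing adaptors lie on both sides.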

How the data were processed

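Transcript abundances of 8 bulk RNA-Seq libraries (SMART-Seq v4 cDNA, Nextera XT, single-end reads, no strand information) were deposited by the authors as estimated counts and TPM per transcript, made with kallisto 0.46.2 per the labels on GRCm38 with Ensembl 96 transcripts per the study's methods. Estimated counts were summed per gene with the GENCODE vM21 annotation, added over libraries A and B of a mouse and rounded. The transcripts without a gene (0.647% to 0.756% of counts) were left out. Transcript lengths deposited beside them were used only in alternatives. Diets were compared over 3 VA-free and 2 control mice with edgeR 4.0.16 (R 4.3.3, TMM, filterByExpr, quasi-likelihood F test, Benjamini-Hochberg, threshold 0.05). CPM values are TMM-scaled, and mean ± SD is over mice. Alternatives used limma 3.58.1 and DESeq2 1.42.0. The scripts were tested on simulated data. The members and lists were chosen with earlier results of these data known, and mice were separate animals. Named in every library were the most abundant gene of each role group and the called genes with the 3 lowest adjusted p, as well as Mx1, which was chosen after its values were seen; of each other list, the 2 most abundant genes and the 2 called genes with the largest change were named, and the interferon receptor subunits. A gene of the receptor and kinase list is not reported here and was left out of its counts. Replicate numbers were not used to pair mice. PCR reads without molecular identifiers give estimated counts whose counting error understates the error.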

Additional observations from a re-analysis of the deposited data

Results flagged for a closer look

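In each diet, the 4 libraries of every member were searched for a highest or lowest library that stood far from the other 3 (Dixon's test at its 95% critical value). Of 68 groups of 4 libraries, 7 were flagged, and chance flags about 5% of groups. Control 2A was the outlying library in 4 of them: Irf1 was at 524 CPM beside 1243 to 1331 CPM in the other control libraries, Stat2 at 27.0 CPM beside 43.9 to 45.4 CPM, Ifit1 at 236 CPM beside 108.5 to 122 CPM, and Ifit2 at 58.7 CPM beside 29.9 to 33.8 CPM. Mx1 stood out in control 1A at 1.45 CPM, beside 0.728 to 0.835 CPM. On the VA-free diet, Usp18 was low in VA-free 1B at 3.48 CPM, beside 5.09 to 5.39 CPM, and Ifit2 was high in VA-free 3B at 31.5 CPM, beside 24.6 to 25.7 CPM. Libraries of a mouse share its RNA, so the 4 values of a diet are not independent.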

How the results depend on the processing

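Each result was recomputed under 22 alternatives. Of 748 member values, 662 kept their direction and call, 52 lost and 14 gained a call, and 20 changed direction. Of the 25 called members, 14 kept their call in every alternative, and 1 (Ifit2) changed direction in any; Irf7 and Ifit2 lost their call in 12 alternatives each and Oasl2 in 9. On the TPM scale with limma, 5 members were called higher and 14 lower with a pseudocount of 1, and 6 and 14 with 0.1. There, with pseudocounts of 1 and 0.1, the log2 fold changes that turned positive were 0.21 and 0.22 for Ifih1, 0.18 and 0.18 for Irf3, 0.061 and 0.066 for Ifit2, 0.31 and 0.31 for Irgm1, and 0.23 and 0.23 for Tap2, while the median of all genes was 0.19 and 0.35. After removal of the trend with gene length, Ddx58 was at -0.15, Irf3 at 0.21, Irf9 at -0.04 and Tap1 at -0.091. There the median of the members was -0.67, with 20 called lower and 3 higher. Isg15 was at -2.08 and Bst2 at -2.21, smaller drops than in the main fit, and Ifit1 at -3.28, a larger drop. Ddx58 was at -0.004 with an offset for average transcript length, and Mx2 at 0.072 with 1 library per mouse. When 1 mouse or library was left out, Mx2 ranged from -0.79 to 0.078, Irgm1 from -0.31 to 0.078, Tap2 from -0.39 to 0.033, and Irf9 from -0.01 to 0.18. The genes called between the diets, 7459 in all, ranged over the 22 alternatives from 4476 (without control 2B) to 8498 (TPM, pseudocount 0.1), and from 4476 to 7744 (without control 1B) when 1 mouse or library was left out. With 1 mouse or library left out, members called lower ranged from 17 (without control 2B) to 23 and members called higher from 2 to 4. Deviations from the diet mean of mice with the same replicate number correlated at -0.02 and 0.01. With 2 control mice their deviations mirror each other, so these correlations cannot decide whether the numbers paired the mice. With the replicate number as a block, 5242 genes were called, 20 members lower and 3 higher, and Ifit2 and Oasl2 were not called. The 2 control mice limit the precision of every difference. The causes of these changes were not tested.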

Other observations

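The deposited transcript estimates give more detail on members that rose or were not called, and on Irf8, which was called lower. They are shares of a gene's TPM, each the range over the 4 libraries of a diet, with no test. Of Stat2, the most abundant coding transcript, of 4394 bases, took 36.7% to 41.3% on the VA-free and 23.9% to 38.2% on the control diet, and most of the rest fell to retained-intron transcripts. Tap2 was nearly all on a retained-intron transcript of 2561 bases, with 86.4% to 88.8% and 87.0% to 90.2%. Of the coding Nlrc5 transcripts, the one of 4552 bases took 29.5% to 32.0% on the VA-free and 0.293% to 26.0% on the control diet, and the one of 7578 bases 2.31% to 6.52% and 7.62% to 18.7%. The coding transcripts of Irf8 differed in direction. The one of 2847 bases took 28.4% to 36.1% on the VA-free and 8.81% to 16.98% on the control diet, the one of 1284 bases took 21.4% to 33.7% and 36.8% to 41.6%, and the one of 2270 bases took at most 0.814% and 7.32% to 14.99%.

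Several members overlap other genes, and without strand information reads of overlapping genes can be confused. Irf8 overlaps Gm20388, on the same strand, which had a mean of 45.5 TPM on the VA-free and 15.8 TPM on the control diet. Irf7 overlaps Phrf1 on the opposite strand, with 71.2 and 27.0 TPM. Irf9 overlaps Rnf31 on the same strand (40.9 and 13.4 TPM), Igtp overlaps Irgm2 on the same strand (75.4 and 47.1 TPM), and Tap1 overlaps Psmb9 on the opposite strand (13.5 and 50.3 TPM). Their part in the member values was not tested.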
